A study of Mus musculus with 57 samples.

Results

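Guanylate-binding proteins (GBPs) and immunity-related GTPases (IRGs) are interferon-induced GTPases of cell-autonomous defence, and 10 of their genes were followed here in mouse brain microglia. The genes are Gbp2, Gbp3, Gbp5, Gbp6, Gbp7, Gbp9, Irgm1, Irgm2, Igtp and Iigp1, taken by symbol, and all 10 were found among the 53278 genes of the LPS experiment and the 50565 genes of the sex experiment. Interferons signal through STAT and IRF factors, which bind short promoter motifs of these genes. The GBPs then coat pathogen vacuoles and bacterial membranes, and Gbp2 and Gbp5 are known for promoting inflammasome activation. Among the IRGs, Iigp1 is an effector that disrupts vacuoles, whereas Irgm1, Irgm2 and Igtp are regulators that sit on host membranes and hold the effectors inactive.

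RNA came from CD11b-positive brain cells of adult wild-type (WT) mice and of littermates deficient in P2RY12 (KO), a receptor for extracellular nucleotides on microglia. The series asks how P2RY12 bears on metabolic and activation states. By their labels, the LPS experiment had 8 ns and 9 LPS libraries of WT, and 8 of each from KO, in 2 sets. LPS is a bacterial cell-wall component given intraperitoneally at 1 mg/kg, and ns is used as written. The sex experiment had 4 WT and 5 KO animals of each sex, with no treatment in their labels. The KO allele, the strain, the age in weeks and the time after injection are not given in the sources used here, nor is the sex in the LPS experiment.

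The promoter stretches below show what these genes share in sequence. RefSeq promoter windows (GRCm38.p6, 250 bases before to 50 after the start site) were used for 7 of the 10 genes. Gbp6 and Gbp9 had no match, and Iigp1 was left out of the search, so the counts below cover only those 7. The motifs searched were the core of the interferon-stimulated response element (GAAANNGAAA) and the core of the gamma-activated site (TTCNNNGAA), on both strands. All 7 matched genes held at least 1 response element core, against 3.99% of 27025 genes, and 4 held a gamma-activated core, against 9.55%. Gbp3 also had a window 2, which held 0 cores of either kind and is not printed. Capitals mark the cores, which may overlap each other, in the strand of the gene.
Gbp2, chr3:142620584-142620633, plus strand: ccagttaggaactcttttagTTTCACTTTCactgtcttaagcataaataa
Gbp3, chr3:142559979-142560034, plus strand: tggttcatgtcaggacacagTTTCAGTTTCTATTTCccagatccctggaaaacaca
Gbp5, chr3:142496684-142496910, plus strand: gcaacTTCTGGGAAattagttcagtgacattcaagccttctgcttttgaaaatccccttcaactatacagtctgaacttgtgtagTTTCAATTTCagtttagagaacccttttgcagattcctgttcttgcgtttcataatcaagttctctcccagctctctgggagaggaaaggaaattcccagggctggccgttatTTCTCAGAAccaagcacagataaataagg
Gbp7, chr3:142530210-142530312, plus strand: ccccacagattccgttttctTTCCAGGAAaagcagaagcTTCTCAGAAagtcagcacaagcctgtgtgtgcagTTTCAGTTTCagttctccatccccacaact
Irgm1, chr11:48871415-48871470, minus strand: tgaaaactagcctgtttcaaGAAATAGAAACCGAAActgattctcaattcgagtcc
Irgm2, chr11:58214882-58214942, plus strand: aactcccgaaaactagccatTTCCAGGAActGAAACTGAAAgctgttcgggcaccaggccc
Igtp, chr11:58199491-58199551, plus strand: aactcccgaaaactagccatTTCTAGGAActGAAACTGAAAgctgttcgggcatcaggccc

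A gamma-activated core was found in Gbp5, Gbp7, Irgm2 and Igtp. The nearest edge of a response element core lay 156 bases upstream of the start site in Gbp5, and from 15 bases (Irgm1) to 55 bases (Irgm2) upstream in the other 6 genes. The stretches of Igtp and Irgm2 differed at 2 of 61 bases, T24C and T54C, counted from the first base printed with the Igtp base first. Their whole windows were 92.1% identical over 265 aligned bases. A match is a description of these letters and does not show that a factor binds there.

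Per the headers of the sex experiment's table (GRCm39), the genes form clusters. Gbp5 (142202695 to 142228105), Gbp7 (142236097 to 142255912), Gbp3 (142265781 to 142278974) and Gbp2 (142326424 to 142343769) lie in this order on the plus strand of chromosome 3. Gbp9 (105224332 to 105258255) and Gbp6 (105418568 to 105443733) are on the minus strand of chromosome 5. Igtp (58090382 to 58098418) and Irgm2 (58105803 to 58113609) are plus-strand neighbours on chromosome 11, where Irgm1 (48756072 to 48762247, minus strand) lies apart, and Iigp1 is on chromosome 18. In that table each gene was counted over its whole span, introns included. Gbp2 overlaps Mir6381 and Gbp3 overlaps Gm40158, both on the other strand, and near-identical family members such as Gbp6 and Gbp10 or Tgtp1 and Tgtp2 can share reads, so these values are uncertain.

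Library totals ran from 15.9 to 168.4 M counts (M for mega, median 24.7) in the LPS experiment and from 58.5 to 318.5 M (median 92.0) in the sex experiment. In 4 WT libraries, all of library number 2, P2ry12, the targeted gene, and Saa3, an acute-phase gene, did not follow the treatment label. P2ry12 was at 481 and 927 CPM (counts per M counts after TMM scaling) in those labelled WT ns, against 3520 to 5410 in the other 6, and at 4460 and 12200 in those labelled WT LPS, against 400 to 1060 in the other 6. The value of 12200, in WT LPS 6, is outside the range of both treatments. Saa3 was at 1780 and 2490 CPM in the 2 labelled WT ns, and at 1.59 and 3.21 in those labelled WT LPS 1 and WT LPS 6. The other WT LPS libraries had 1420 to 9720 CPM. The other WT ns libraries had 1.52 to 64.3 (median 2.75), the highest being WT ns 8, which was kept in its group. The 4 WT libraries of number 2 are shown apart here, as WT ns number 2 and WT LPS number 2. The main WT results are also given with every library in its labelled group. WT LPS 8 differed from WT LPS 9 by 1.86 times sampling noise, against at least 8.32 for other pairs within a group, and both were summed into 1 sample. In 6 libraries of set 2 (WT ns 5, WT LPS 6, WT LPS 7, KO ns 5, KO ns 6 and KO LPS 5) Sall1, a microglial identity factor, was at 113 to 447 CPM. The other 26 samples had 470 to 1710 CPM, so Sall1 leaves no clear gap at this cut. Sall1 was also lower with LPS, with medians of 1230 in WT ns, 679 in WT LPS, 1340 in KO ns and 864 in KO LPS. These 6 libraries were picked with a further measure too, and the calls are given with and without them. P2ry12 followed the genotype label in the sex experiment, with 309 to 526 CPM in KO and 3010 to 5930 in WT.

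**Figure D1:**
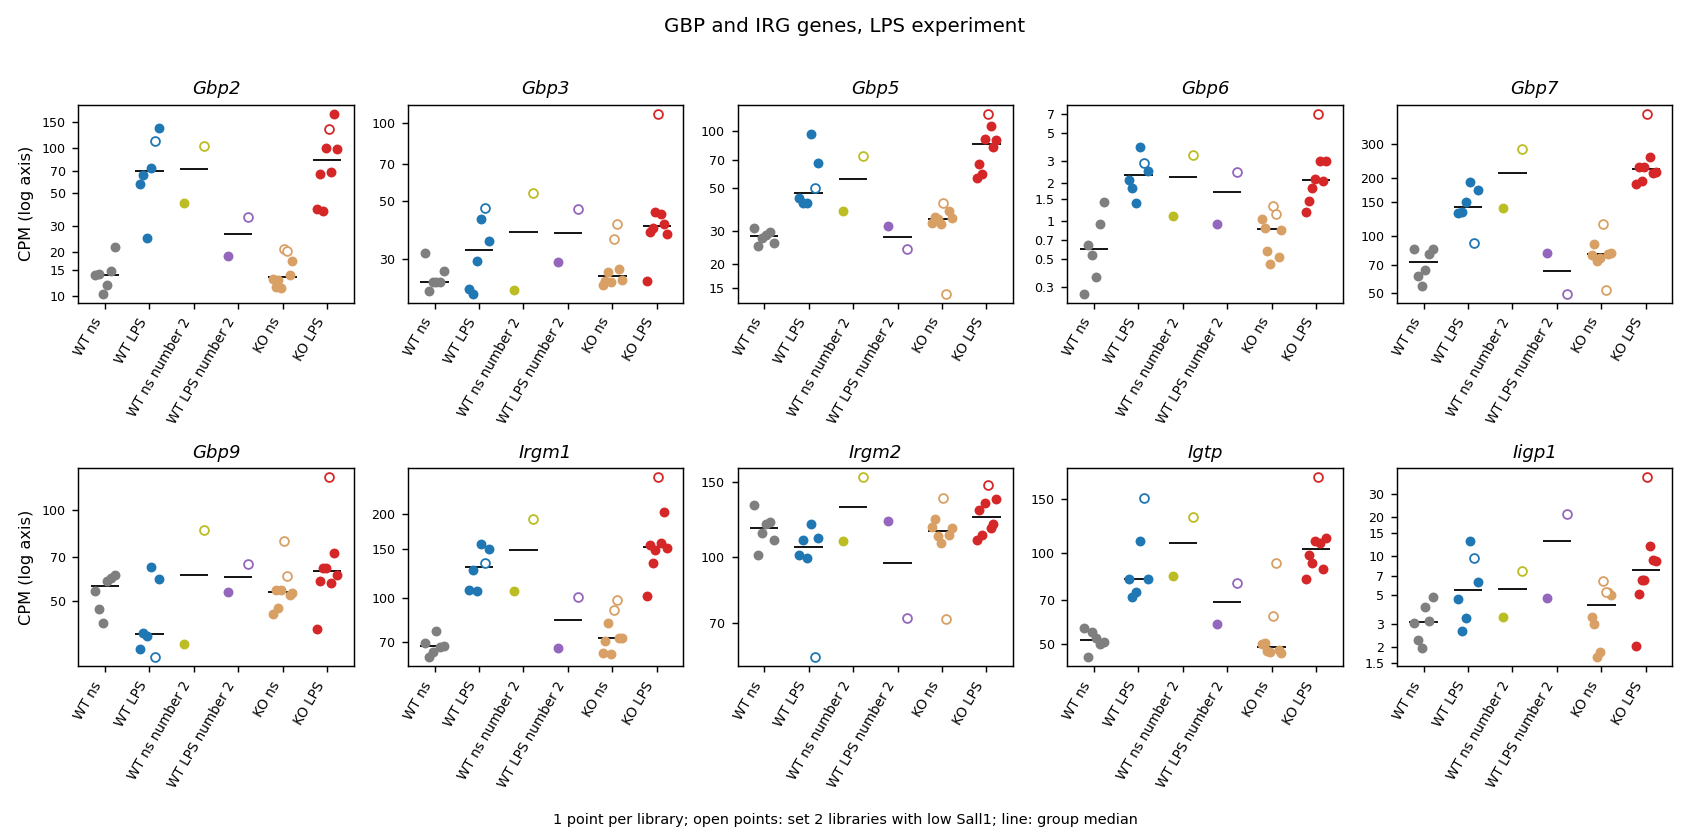
Level of each gene in CPM (log axis) in the LPS experiment, by group, with 1 point per library and a line at the group median. Open points are the 6 set 2 libraries with the lowest Sall1. With the number 2 libraries set apart, Gbp2 separates ns from LPS in both genotypes, and across all libraries the 3 lowest Irgm2 values, 58.2 to 71.9, are open points.

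With LPS, 8 of the 10 genes were higher in KO and 0 were lower, against a background of 28.3% of the 15857 genes tested that were called, and 13.1% that were called higher (edgeR's quasi-likelihood test, adjusted p under 0.05). The median log2 fold change of the 10 was 1.20, and that of all genes tested was -0.02. The GBPs Gbp2, Gbp6, Gbp7, Gbp5 and Gbp3 rose, as did the IRGs Iigp1, Irgm1 and Igtp, while Gbp9 and Irgm2 were not called. In 4 genes, Gbp2, Gbp5, Gbp7 and Irgm1, every KO LPS library lay above every KO ns library, which held for 4.14% of the genes with a mean of at least 1 CPM (8.24% in either direction). The labels do not say whether libraries came from separate animals, so the p-values measure the spread between libraries.

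Gbp2 showed the largest change of the 10. Its level was 11.4 at the lowest, 13.5 at the median and 20.9 CPM at the highest in KO ns, and 37.7, 83.7 and 171 CPM in KO LPS. All 8 LPS libraries were above the highest ns library, and the log2 fold change was 2.51 ± 0.24 (SE, n = 8 against 8, edgeR adjusted p 3.36e-09).

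Gbp7, known for bringing the oxidase machinery to pathogen vacuoles, had 52.4, 79.9 and 115 CPM (lowest, median, highest) in KO ns and 186, 221 and 431 CPM in KO LPS. The groups did not overlap, and the log2 fold change was 1.57 ± 0.19 (adjusted p 1.81e-07). Gbp5 had 14.0, 34.7 and 42.1 CPM in KO ns and 56.8, 85.5 and 123 CPM in KO LPS. It too was separated in every library, and changed by 1.32 ± 0.19 (log2, adjusted p 5.01e-06).

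Gbp6 was the gene with the fewest counts. It had 0.451, 0.865 and 1.31 CPM in KO ns and 1.18, 2.10 and 7.08 CPM in KO LPS, so the groups overlapped slightly. Its log2 fold change was 1.57 ± 0.29 (adjusted p 0.000122). Gbp3 had the smallest called change, 0.71 ± 0.19 (adjusted p 0.00627). Its levels were 23.7, 25.7 and 40.8 CPM in KO ns and 24.7, 40.1 and 109 CPM in KO LPS, with wide overlap.

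Among the IRG regulators, Irgm1 had 63.5, 72.0 and 98.5 CPM in KO ns and 102, 152 and 269 CPM in KO LPS, with no overlap. Its log2 fold change was 1.09 ± 0.13 (adjusted p 1.68e-07). Igtp had 46.8, 48.9 and 92.3 CPM in KO ns and 81.9, 103 and 177 CPM in KO LPS. Only KO ns 6, at 92.3 CPM, reached into the LPS range, and the log2 fold change was 0.97 ± 0.15 (adjusted p 1.62e-05).

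The effector Iigp1 varied most among the LPS libraries. It had 1.65, 4.17 and 6.48 CPM in KO ns and 2.04, 7.84 and 40.5 CPM in KO LPS, the highest value being that of KO LPS 5. Its log2 fold change was 1.38 ± 0.30 (adjusted p 0.000649), and 1.06 without the 6 set 2 libraries that stand apart (adjusted p 0.000837).

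Gbp9 and Irgm2 stayed within overlapping ranges. Gbp9 had 45.0, 53.6 and 78.9 CPM in KO ns and 40.3, 62.5 and 128 CPM in KO LPS (log2 fold change 0.27, 95% interval -0.04 to 0.59, adjusted p 0.231). Irgm2 had 71.6, 115 and 138 CPM in KO ns and 110, 125 and 148 CPM in KO LPS (log2 fold change 0.16, 95% interval -0.12 to 0.44, adjusted p 0.447). The intervals leave out a change of the size seen for Gbp5 or Irgm1 in the same libraries.

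Without the 6 set 2 libraries that stand apart, the 8 KO calls were kept, with log2 fold changes from 0.62 (Gbp3) to 2.55 (Gbp2), while 55.0% of all genes tested were called. Within set 2 alone, where 4.65% of all genes were called, 5 of the 8 remained. Gbp3 (log2 0.95, adjusted p 0.160), Iigp1 (1.78, adjusted p 0.0538) and Igtp (1.07, adjusted p 0.0585) were not called there, at changes larger than in all libraries.

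The cell type markers moved with treatment as well. The 8 microglial markers summed to 31600 to 39800 CPM in KO ns and 21000 to 26700 in KO LPS. In WT ns and WT LPS they summed to 21100 to 37600 and 16500 to 25100 CPM. The sum of the 4 endothelial markers was lower with LPS without overlap, at 67.8 to 108 against 24.3 to 66.8 CPM in KO. In WT it was 52.9 to 65.5 against 15.1 to 36.7. Pecam1 made up most of it, with a median of 40.8 CPM over the LPS experiment, against 0.186 for Cldn5, 1.69 for Flt1 and 4.58 for Kdr. The sum of the 4 oligodendrocyte markers was also lower without overlap in WT (108 to 121 against 59.5 to 82.4). Single markers were not compared between groups. The 6 neutrophil markers summed to 236 to 9810 CPM in KO ns and 872 to 4120 in KO LPS, and the 6 monocyte markers to 52.7 to 1170 and 182 to 614. In WT ns and WT LPS, neutrophil markers summed to 266 to 13700 and 1490 to 12900. The 6 T and NK cell markers, which stand for sources of interferon gamma, summed to 8.08 to 62.9 CPM in KO ns and 1.23 to 19.3 in KO LPS, and Cd3e was at 0 in 12 of 33 libraries. In bulk samples, fewer cells of a type and less RNA per cell cannot be told apart, and the part of these markers in the GBP and IRG values was not tested.

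In WT, the same contrast was made between the 6 libraries labelled WT ns and the 6 labelled WT LPS that were not of number 2. There 7 of the 10 genes were called higher and 0 lower, against 30.3% of all genes tested called and 14.8% called higher. Gbp2, Gbp5, Gbp7, Irgm1 and Igtp did not overlap between the groups, which held for 12.6% of genes with a mean of at least 1 CPM (27.7% in either direction). As labelled, the groups overlapped in all 10 genes, and 0.0152% of those genes did not. Without the 6 set 2 libraries that stand apart 7 were also called, among 54.6% of all genes. The rise of Gbp2, from 10.4, 14.0 and 21.6 CPM in WT ns to 24.7, 69.7 and 136 CPM in WT LPS, gave a log2 fold change of 2.33 ± 0.27 (adjusted p 1.78e-07).

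Gbp6 went from 0.264, 0.594 and 1.41 CPM in WT ns to 1.39, 2.29 and 3.87 CPM in WT LPS, a log2 change of 1.80 ± 0.34 (adjusted p 0.000165). Gbp7 (1.01 ± 0.21, adjusted p 0.000607) and Gbp5 (1.00 ± 0.22, adjusted p 0.00101) changed by similar amounts. Irgm1 rose by 0.92 ± 0.15 (adjusted p 2.3e-05) and Igtp by 0.84 ± 0.18 (adjusted p 0.000585), and these IRG regulators had their WT ns levels within 61.5 to 76.1 and 45.2 to 56.5 CPM.

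Iigp1 was called narrowly in WT. Its levels were 1.94, 3.11 and 4.82 CPM in WT ns and 2.63, 5.48 and 13.2 CPM in WT LPS, a log2 change of 0.89 ± 0.34 (adjusted p 0.0465), and it was called in 4 of 12 alternatives. Gbp3 was not called, with 22.5, 24.5 and 31.5 CPM against 22, 32.4 and 47.0 CPM (log2 fold change 0.30 ± 0.22, adjusted p 0.33). Gbp9 (-0.27 ± 0.19, adjusted p 0.286) and Irgm2 (-0.22 ± 0.16, adjusted p 0.326) were not called either.

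With every library in its labelled group, 0 of the 10 genes and 0 of the 15857 genes tested (0.0%) were called in WT by edgeR, with 6 of the 10 and 3605 of all genes (22.7%) at an unadjusted p under 0.05. DESeq2, with the number 2 libraries apart, called 7 of the 10. The log2 fold changes in the labelled groups were 1.14 ± 0.38 for Gbp2 and 0.26 ± 0.28 for Gbp7. So the WT calls rest on setting the number 2 libraries apart, whereas the KO count was 8 in both fits (22.3% of all genes as labelled).

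Of the 10 genes, 7 in the library labelled WT ns 1 and 8 in WT ns 5 were nearer the median of the other WT LPS libraries, and 8 in WT LPS 1 were nearer that of WT ns. In WT LPS 6, 7 of the 10 were nearer the WT LPS median, as labelled, and 3 nearer that of WT ns. These counts include Gbp3, Gbp9 and Irgm2, which were not called in WT, so for them the nearer median does not tell the treatment. Gbp2 was at 42.5 CPM in the library labelled WT ns 1 and 103 in WT ns 5, above the 21.6 CPM of the highest other WT ns library, and Gbp7 was at 140 and 281, above the highest other value of 84.9. In that labelled WT LPS 1, Gbp2 was at 18.7 CPM, Gbp7 at 81.6 and Irgm1 at 66.4, all inside the range of the other WT ns libraries. That labelled WT LPS 6 had 34.2 CPM of Gbp2 and 21.3 of Iigp1, inside or above the WT LPS range, and 49.8 of Gbp7 and 24 of Gbp5, below the WT ns range. WT LPS 6 and WT ns 5 are also among the 6 libraries with the lowest Sall1.

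**Figure D2:**
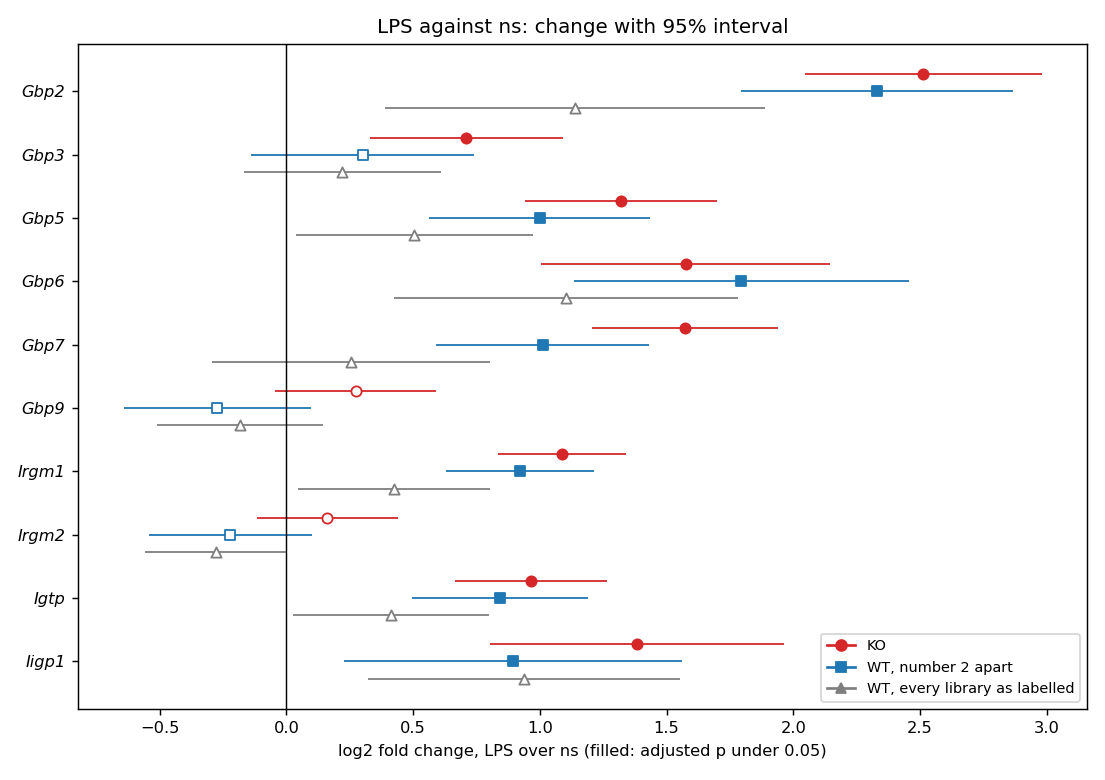
Log2 fold change of each gene, LPS over ns, with its 95% interval (1.96 SE either side), in KO, in WT with the number 2 libraries apart, and in WT with every library as labelled. Filled symbols have an adjusted p under 0.05. The changes run from 2.51 for Gbp2 in KO to -0.28 for Irgm2 in WT as labelled, and the labelled WT groups have 0 filled symbols.

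Genes of the same cluster, not always adjacent, were compared by their log2 CPM ratio within each library, for 5 pairs in each genotype (10 exact two-sided permutation tests, Benjamini-Hochberg, chosen after seeing the data). Ratios are not corrected for gene length, so only their change is read. Gbp2 to Gbp3, Gbp7 to Gbp3, Gbp6 to Gbp9 and Igtp to Irgm2 each set a larger LPS change given above against a smaller one. Their p-values therefore restate those changes and are no separate support. Other pairs of these clusters were not tested. In KO, the ratio of Gbp2 to Gbp3 was -0.93 ± 0.20 (SD, n = 8) in ns and 0.87 ± 0.66 (n = 8) in LPS, with no overlap. This change of 1.79 (exact permutation, adjusted p 0.000518) recurred in WT as 1.96 (adjusted p 0.00311). Without the 6 libraries that stand apart it was 1.89 in KO and 1.93 in WT, and as labelled it was 1.11 in WT (exact permutation, adjusted p 0.0526).

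Gbp7 also rose against Gbp3, by 0.94 in KO (exact permutation, adjusted p 0.000518) and 0.67 in WT (adjusted p 0.0352), where it was 0.07 as labelled (adjusted p 0.839). Gbp5 and Gbp7, which adjoin each other, kept a ratio whose change did not pass in KO (-0.20, exact permutation, adjusted p 0.153) or WT (-0.02, adjusted p 0.894). Without the 6 set 2 libraries that stand apart, that change in KO was -0.28 and passed (exact permutation, adjusted p 0.0168).

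The chromosome 5 pair moved apart as well. Gbp6 rose against Gbp9 by 1.32 in KO (exact permutation, adjusted p 0.000518) and by 2.25 in WT (adjusted p 0.00311), with all 8 and all 6 LPS libraries above the highest ns library. It was 1.33 and 2.11 without the 6 libraries that stand apart, and 1.58 in WT as labelled (exact permutation, adjusted p 0.00653).

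Igtp and Irgm2, the neighbours with near-identical promoter stretches shown above, differed in their response. The ratio of Igtp to Irgm2 rose by 0.79 in KO (exact permutation, n = 8 against 8, adjusted p 0.00311) and by 1.08 in WT (n = 6 against 6, adjusted p 0.00311). In KO ns the lowest was -1.32, and KO ns 6 was the highest at 0.37, above the LPS range of -0.44 to 0.26. Without the 6 libraries that stand apart, the changes were 0.93 in KO and 0.79 in WT, and as labelled 0.77 in WT (exact permutation, adjusted p 0.0223).

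**Figure D3:**
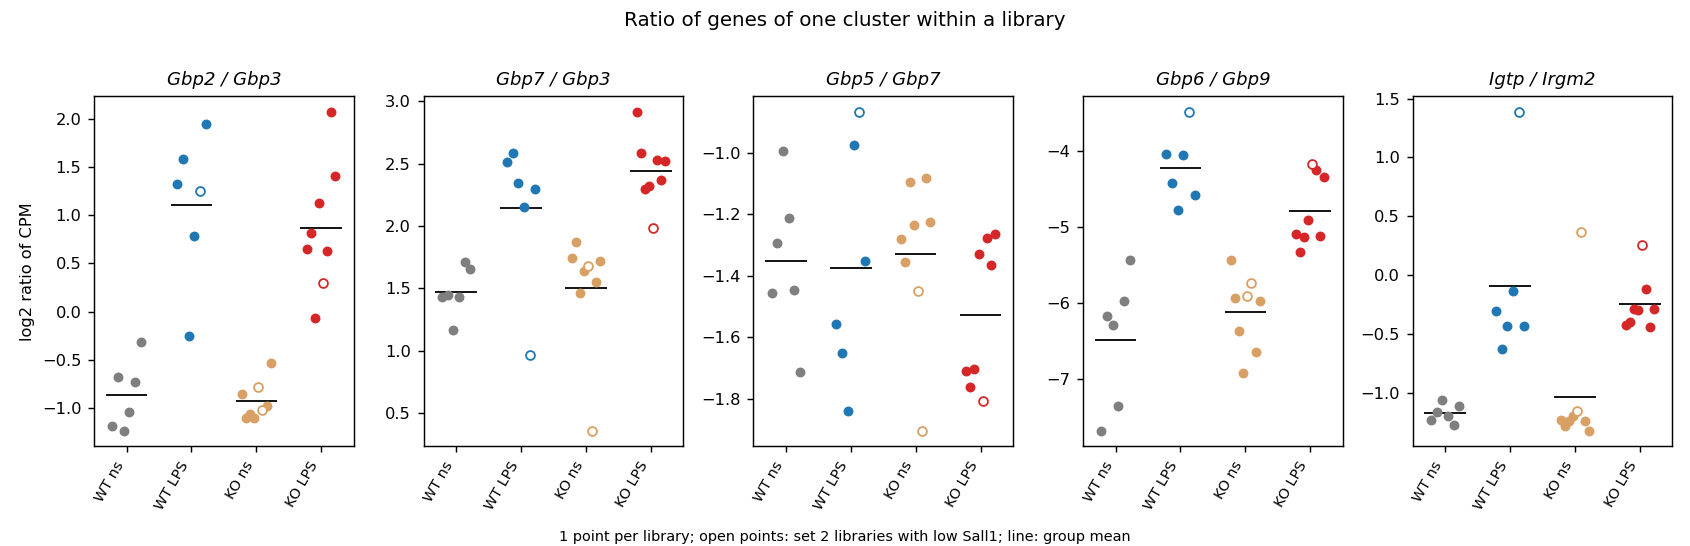
Log2 ratio of CPM of genes of one cluster within a library, by group, with 1 point per library and a line at the group mean. Open points are set 2 libraries with the lowest Sall1. The number 2 libraries are not drawn. In the libraries shown, the Gbp2 to Gbp3 and Gbp6 to Gbp9 ratios separate LPS from ns in both genotypes, while Gbp5 to Gbp7 does not.

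Genes around the GBPs and IRGs were counted in 3 lists, to be read against the 13.1% of all genes called higher and 15.2% lower in KO, and 14.8% and 15.5% in WT. Of 11 other GBP and IRG genes, 7 could be tested in the LPS experiment, and Gbp2b, Gbp10, Gbp11 and Irgc1 were too low. In KO, 2 of the 7 were higher with LPS and 1 was lower, with a list median log2 fold change of 0.33 against -0.02 for all genes. Gm12250, an IRG gene on the effector side, rose by 1.50 ± 0.17 (adjusted p 6.53e-08), from 7.02 to 21 CPM in KO ns to 17.4 to 45.1 in KO LPS. The near-identical IRG copies Tgtp2 (0.74 ± 0.23, adjusted p 0.0135) and Tgtp1 (-1.44 ± 0.26, adjusted p 8.47e-05) were called in opposite directions, which counting could split. In WT, 1 of the 7 was higher and 2 were lower, with Gm12250 at 1.57 ± 0.20 (adjusted p 4.22e-07). With the 6 libraries that stand apart left out, Gm12250 was at 1.69 in KO and 1.59 in WT, and 3 of the 7 were higher and 1 lower in KO.

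Of 16 genes of upstream interferon signalling, 14 were tested, and in KO 5 were higher with LPS and 0 were lower (median 0.23). Stat2 and Irf9, parts of the transcription complex of type I interferon signalling, rose by 1.55 ± 0.34 (adjusted p 0.000851) and 0.82 ± 0.08 (adjusted p 1.12e-08). Irf1, a factor that binds GBP promoters, rose by 0.67 ± 0.15 (adjusted p 0.0013), and Ifnar1, a type I interferon receptor chain, by 0.57 ± 0.17 (adjusted p 0.013). Leaving out the 6 libraries that stand apart, where 55.0% of all genes were called, 8 were higher and 1 was lower, with Stat2 at 1.49, Irf9 at 0.88 (log2) and Irf1 at 0.75.

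The interferon gamma receptor chains Ifngr1 (-0.12 ± 0.15, adjusted p 0.637) and Ifngr2 (0.28 ± 0.11, adjusted p 0.0515) were not called in KO, and without the 6 libraries Ifngr1 was at 0.10 (not called) and Ifngr2 at 0.38 (adjusted p 9.28e-06). The ligands were near the detection limit. Ifng had at most 1.49 CPM in any sample of the LPS experiment, and at most 0.295 in the KO LPS and WT LPS groups. Ifnb1 had at most 1.13 CPM, its highest values being 1.13 in WT LPS 7 and 0.896 in KO LPS 5, both among the 6 libraries that stand apart. In WT, 4 of the 14 upstream genes were higher and 0 were lower, with Stat2 at 1.13 ± 0.39 (adjusted p 0.0279) and Irf1 not called (0.44 ± 0.18, adjusted p 0.0597).

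Of 15 partners and downstream genes, 1 was higher and 3 were lower with LPS in KO (median -0.03), so 4 of 15 were called against 28.3% of all genes. Casp4, the sensor of cytosolic LPS, rose by 0.75 ± 0.28 (adjusted p 0.0468). Gabarapl2 (-0.86 ± 0.29, adjusted p 0.0234), Atg12 (-0.48 ± 0.17, adjusted p 0.0383) and Map1lc3b (-0.46 ± 0.11, adjusted p 0.00187) fell; all 3 encode proteins of the ubiquitin-like conjugation system of autophagy. As labelled, 0 were higher and 1 was lower in KO, and without the 6 libraries that stand apart 4 were higher and 4 lower. In WT 2 were higher, Casp4 (1.41 ± 0.33, adjusted p 0.00177) and the inflammasome sensor Nlrp3 (0.93 ± 0.27, adjusted p 0.00916), and 2 were lower, among them Map1lc3b (-0.49 ± 0.13, adjusted p 0.00404). With every library in its labelled group, 0 genes were called in WT in any of these lists. Between KO and WT, 0 genes of the 3 lists were called at ns, at LPS, in the interaction or in the sex experiment (edgeR).

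The genes most alike in pattern to the mean of the 10 across all 32 samples were Gm5431 (Pearson's r 0.929), Parp9 (0.918), Ifi206 (0.911), Gm12250 (0.906) and Ifih1 (0.906). Without the 6 libraries that stand apart, r was 0.907 to 0.927 over 26 samples. These samples share treatment groups and library sets, so the values are a description.

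KO was then set against WT within each treatment. At ns, 0 of the 10 genes were called, against 0.0883% of all genes, with 0 at an unadjusted p under 0.05 (8.92% of all genes) and 0 called by DESeq2. The log2 fold changes ran from -0.05 (Irgm2) to 0.33 (Gbp6), with SE of 0.14 to 0.32. The groups overlapped in all 10 genes, while 0.921% of genes with a mean of at least 1 CPM did not overlap. For Irgm1, the gene with the narrowest interval, it was 0.17 (95% interval -0.10 to 0.44). With every library in its labelled group 0 were called (0.114% of all genes), 2 of the 10 had a positive sign, and the range was -0.89 (Gbp2) to 0.03 (Gbp9). Without the 6 set 2 libraries that stand apart 0 were called too (0.364% of all genes).

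At LPS, all 10 genes were higher in KO in direction but 0 were called, against 0.0946% of all genes (edgeR), and DESeq2 called 0. An unadjusted p under 0.05 was reached by 7 of the 10 and by 6.04% of all genes. Genes of the same library are not independent, so no excess is read from this count. It was 7 with DESeq2, 5 without all libraries of number 2 and 4 with no set covariate. In library set 2 alone it was 1, among 194 of 16250 genes. In Gbp7, WT LPS libraries had 91.9, 141 and 190 CPM (lowest, median, highest) and KO LPS libraries 186, 221 and 431 CPM. The ranges barely touched, 0 of the 10 genes were free of overlap (0.282% of genes with a mean of at least 1 CPM), and the log2 fold change was 0.74 ± 0.20 (edgeR adjusted p 0.255).

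Gbp9 was at 0.61 ± 0.18 (adjusted p 0.388; as labelled 0.49 ± 0.17), from 32.4, 38.6 and 64.6 CPM in WT LPS to 40.3, 62.5 and 128 CPM in KO LPS. Gbp5 was at 0.57 ± 0.21 (adjusted p 0.587; as labelled 0.76 ± 0.24). Gbp2, the gene with the largest LPS change, was at 0.21 ± 0.24 (adjusted p 1; as labelled 0.48 ± 0.38).

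Without the 6 set 2 libraries that stand apart, 1 of the 10 was called at LPS, Gbp7, with 0.48 ± 0.10 (adjusted p 0.0386), where 0.282% of all genes were called. As labelled, 0 were called (0.126% of all genes) and Gbp7 was at 0.94 ± 0.28 (adjusted p 0.255). Without the 6 libraries, Gbp6 had the opposite sign (-0.17 ± 0.28, adjusted p 0.875). The library KO LPS 5, one of the 6, held the highest value of the KO LPS group in 9 of the 10 genes, Gbp2 being the exception.

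The difference in LPS response between genotypes was tested as an interaction. It gave 0 calls among the 10 and 0 among all genes (0.0%), with 1 of the 10 and 756 of all genes (4.77%) at an unadjusted p under 0.05, and DESeq2 called 0 of the 10 and 3 genes in all. The interaction ran from -0.22 ± 0.44 (Gbp6) to 0.56 ± 0.28 (Gbp7), positive in 9 of the 10, and for Gbp9 it was 0.55 ± 0.25 (adjusted p 0.754). As labelled, 0 were called (0.0%), with Gbp2 at 1.37 ± 0.54 (adjusted p 0.422). Without the 6 libraries that stand apart 0 were called (0.00628%). The 2 responses are therefore not shown to differ.

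**Figure D4:**
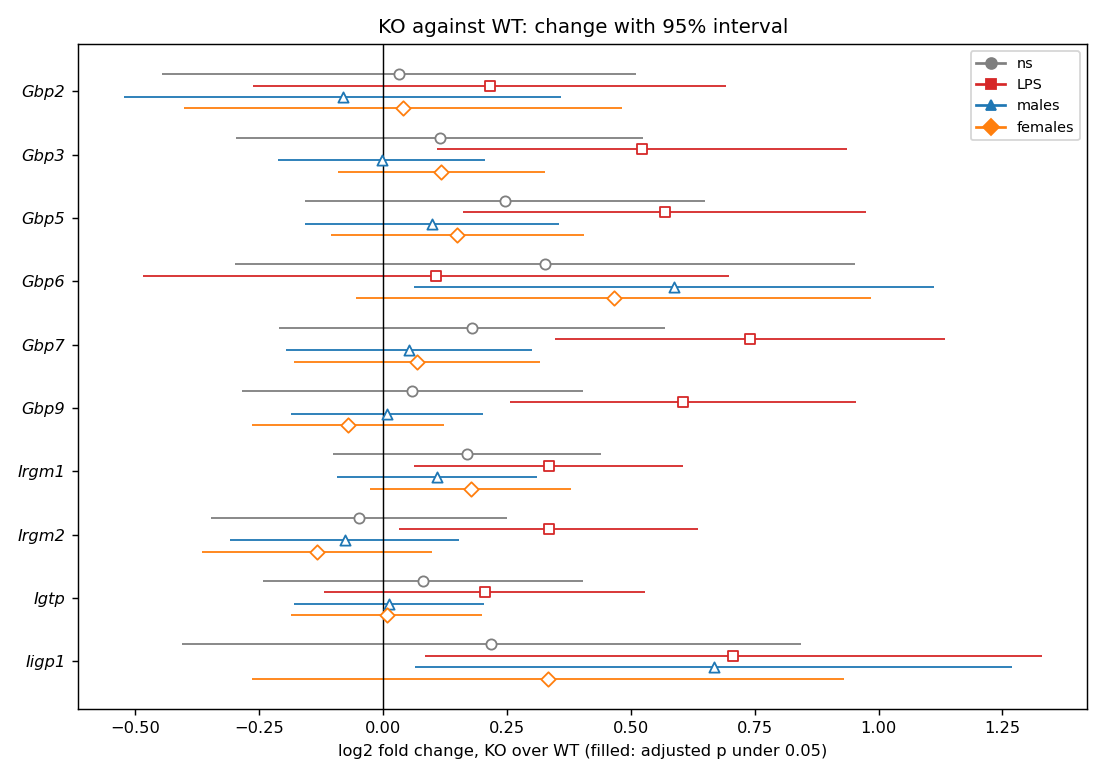
Log2 fold change of each gene, KO over WT, with its 95% interval, at ns and LPS in the LPS experiment and in males and females of the sex experiment. Open symbols are not called, which holds for all 40 values. Gbp7 at LPS, at 0.74, lies farthest from 0.

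In the sex experiment male WT 5 and female WT 2 stood apart from their groups. Pairs within a group that held either differed by 273 to 984 times sampling noise, against 17.7 to 79.7 for the other pairs. Neutrophil markers summed to 40500 CPM in male WT 5 and 23900 in female WT 2, against 612 to 6440 in the other animals, and monocyte markers to 3530 and 1980, against 87.8 to 518. The part of these markers in the GBP and IRG values was not tested.

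In that experiment 0 of the 10 genes were called between KO and WT. The background was 0.00946% of 31709 genes in males, 0.164% in females and 0.432% averaged over the sexes, and DESeq2 also called 0 of the 10 in each. At an unadjusted p under 0.05 there were 2 of the 10 in males (6.85% of all genes), 0 in females (5.22%) and 2 in the average (9.02%). Both were Gbp6 and Iigp1, the genes with the lowest counts. Without male WT 5, 3 of the 10 genes were higher and 7 lower in male KO, against 7 and 3 with it, and 0 were called in either case. Without female WT 2, 7 were higher and 3 lower in female KO, against 8 and 2 with it, and 0 were called.

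Gbp6 was at 0.980, 1.20, 1.08 and 0.921 CPM in the 4 male WT animals and at 2.14, 1.43, 1.47, 0.984 and 1.82 in the 5 male KO animals. It was at 1.87, 1.92, 1.60 and 1.43 in female WT and at 1.21, 3.68, 2.06, 2.64 and 2.22 in female KO. In each sex 4 of 5 KO animals exceeded every WT animal, and 1 did not. The female groups overlapped in all 10 genes (3.04% of genes with a mean of at least 1 CPM did not). The change averaged over the sexes was 0.53 ± 0.19 (edgeR adjusted p 0.425).

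Iigp1 was at 2.34, 2.63, 2.63 and 2.32 CPM in male WT and at 5.57, 4.76, 3.52, 2.69 and 3.17 in male KO. These groups did not overlap, which held for 1 of the 10 genes and for 2.63% of genes with a mean of at least 1 CPM in males, 1.25% being higher. Female WT animals had 4.11, 3.95, 5.32 and 2.80 CPM and female KO animals 2.01, 8.54, 4.37, 6.49 and 4.09, with the KO values on both sides of WT. Averaged over the sexes the change was 0.50 ± 0.22 (edgeR adjusted p 0.521).

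The other 8 genes differed little between genotypes. Averaged over the sexes, Gbp9 was at -0.03 (95% interval -0.17 to 0.11), Igtp at 0.01 (-0.13 to 0.15), Gbp3 at 0.06 (-0.09 to 0.20) and Gbp7 at 0.06 (-0.12 to 0.23). Irgm1 was at 0.14 (-0.00 to 0.29), Gbp5 at 0.12 (-0.06 to 0.31) and Irgm2 at -0.11 (-0.27 to 0.06). Gbp2 was the least precise of them, at -0.02 (-0.33 to 0.29). Its levels were 12.6 to 16.2 CPM in male WT and 10.5 to 20.2 in male KO, and 11.3 to 21 in female WT and 11.2 to 21.7 in female KO.

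No difference in the genotype effect between males and females passed the test. Their interaction term called 0 of the 10 genes and 0 of all genes (0.0%), with 0 of the 10 and 879 of all genes (2.77%) at an unadjusted p under 0.05, and DESeq2 called 0. Among the 10 it ran from -0.33 ± 0.43 (Iigp1) to 0.12 ± 0.15 (Gbp3) and 0.12 ± 0.32 (Gbp2). Female WT animals had more Gbp6 (1.43 to 1.92 CPM) and Iigp1 (2.80 to 5.32) than male WT animals (0.921 to 1.20 and 2.32 to 2.63), a difference between the sexes that was not tested.

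Markers of other cells varied in the sex experiment too. The 6 T and NK cell markers summed to 22.9 to 51.7 CPM in male WT, 25.5 to 36.8 in male KO, 23.4 to 65.2 in female WT and 33.5 to 119 in female KO. Ifng was at 0.898 to 1.79 CPM in the males and at 1.50 to 9.77 in the females. The part of both in the Gbp6 and Iigp1 values was not tested.

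**Figure D5:**
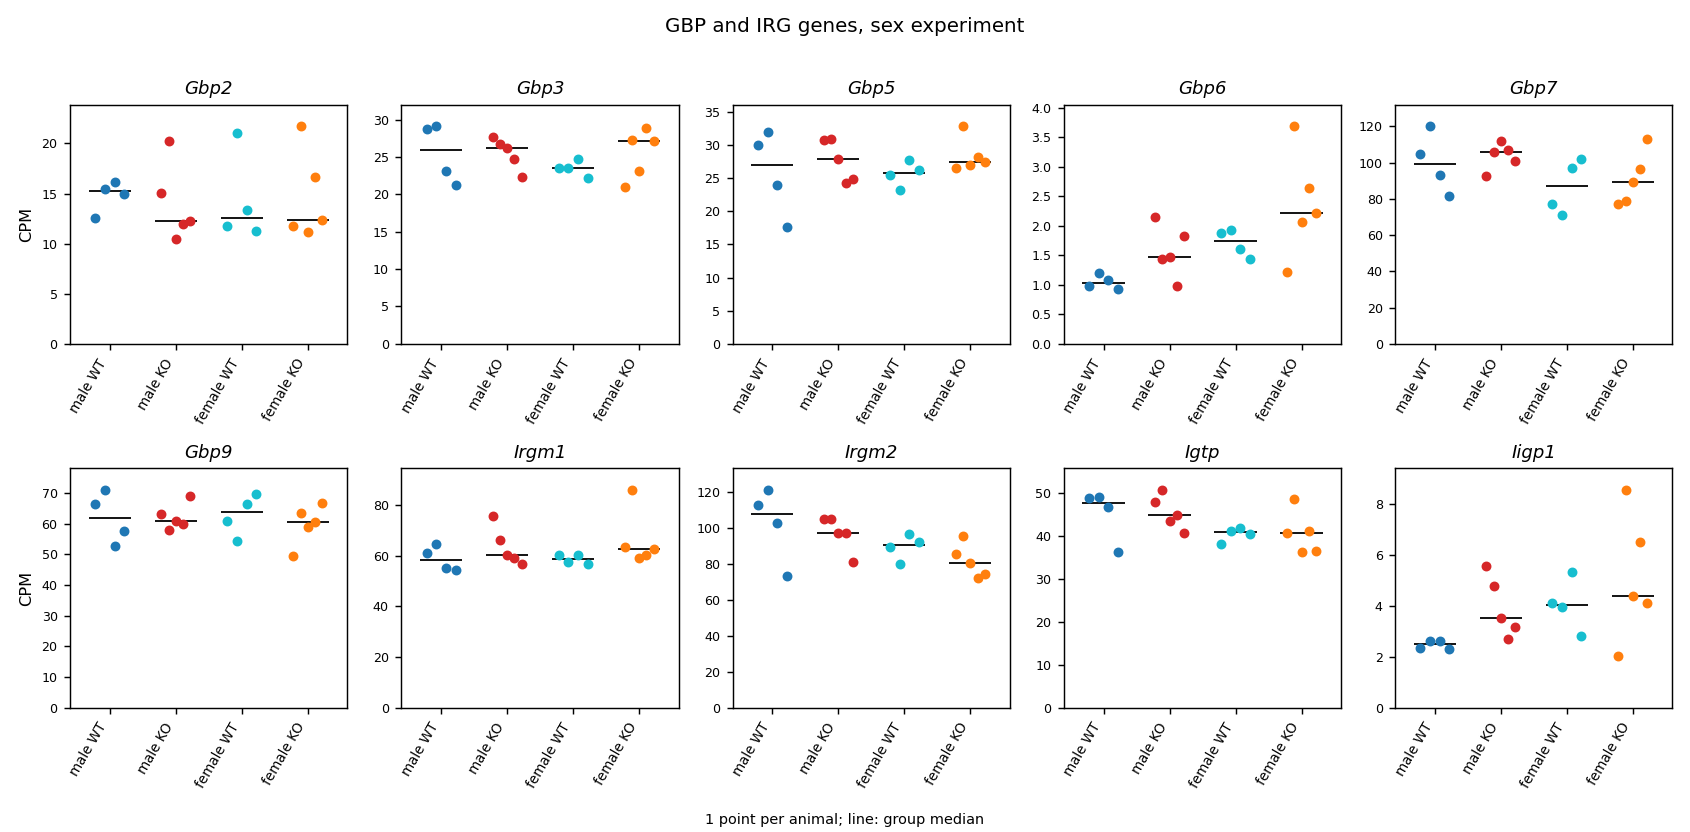
Level of each gene in CPM (linear axis from 0) in the 18 animals of the sex experiment, with 1 point per animal and a line at the group median. Male KO points of Iigp1 (2.69 to 5.57) lie above all male WT points (2.32 to 2.63), and the groups of the other 9 genes overlap between genotypes.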

How the data were processed

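Each experiment has 1 table of counts deposited by the authors, whole numbers per gene and library with no normalization. The submitters' processing notes name FastQC, STAR 2.6.1, featureCounts, Subread, DESeq2 and GRCm39, with no role or order; the strand setting is not given in the sources used here. Low counts of a library were even in 78.4% to 87.7% of cases in the sex experiment and in 41.0% to 46.2% in the LPS experiment, a difference whose reason was not tested, and the tables were fitted separately. A further 6 libraries in the labels, repeats from the sex experiment, were matched to no column and are not analysed here.

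Genes were filtered with filterByExpr on the labelled groups (15857 of 53278 and 31709 of 50565 genes), scaled by TMM and tested with the quasi-likelihood test of edgeR 4.0.16 in R 4.3.3. P-values were adjusted by Benjamini-Hochberg over all genes tested, and a gene is called at an adjusted p under 0.05. The LPS model had group means, the WT libraries of number 2 as groups of their own, and the library set as covariate; the sex model had 4 group means. Exact permutation tests used scipy 1.17.1 and promoter alignments Biopython 1.88. Fits were tested on simulated data. Of the 10 genes, all 10 passed the filter in both experiments.

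Alternatives were DESeq2 1.42.0, RLE scaling, no filter, a mean of at least 5 CPM, every library as labelled, no number 2 libraries, WT LPS 8 and 9 kept apart, no set covariate, each set alone, a replicate block, only the groups compared and each animal left out. Leaving out the 6 set 2 libraries with the lowest Sall1 (picked with a further measure too) was chosen after seeing the data, as were the neighbour ratios and their values as labelled. The genes, gene lists and tests were chosen with earlier results of these data known. Named genes are the 10, the called genes with the 4 largest changes of each list, Ifng, Ifnb1, Ifngr1, Ifngr2, Irf1 and the 5 genes most alike in pattern. Some genes that the rule names or that were used in a check are not reported here. Other names were chosen after their values were seen.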

Additional observations from a re-analysis of the deposited data

Results flagged for a closer look

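Single libraries lay far from the rest of their group in 13 of 80 combinations of a gene and a group. Chance alone gives about 5% for independent combinations. Genes of the same library are not independent, so no excess is read from this count. KO LPS 5 accounted for 6 of them, with Gbp3 at 109 CPM (others 24.7 to 45.6), Gbp6 at 7.08 (1.18 to 3.00), Gbp7 at 431 (186 to 257), Gbp9 at 128 (40.3 to 71.9), Igtp at 177 (81.9 to 112) and Iigp1 at 40.5 (2.04 to 11.9). KO ns 6 stood apart with low Gbp5 (14.0 CPM, others 32.4 to 42.1), low Irgm2 (71.6, others 108 to 138) and high Igtp (92.3, others 46.8 to 62.1). KO ns 5 had a high Gbp9 (78.9, others 45.0 to 60.5), and WT LPS 7 a low Irgm2 (58.2, others 99.8 to 120). These 4 libraries are among the 6 with the lowest Sall1, and the reason was not tested. In the sex experiment, female KO 2 had the highest Gbp5 (32.8 CPM, others 26.6 to 28.2) and Irgm1 (86.0, others 59.1 to 63.7).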

How the results depend on the processing

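In the 2 contrasts with any of the 10 genes called, 3 alternatives moved the count by over 1.5 times. For LPS against ns in KO it was 8, and 5 in library set 2 alone. For LPS against ns in WT it was 7, 0 with every library in its labelled group and 1 in set 2 alone. For KO against WT at LPS it was 0, and 1 without the 6 set 2 libraries that stand apart. Leaving out each animal of the sex experiment gave 0 to 0. No called gene changed sign in 178 values, and uncalled genes did in 94 of 1349. Calls over all genes ranged over 756 to 8765 (4481 as reported) for LPS in KO, 0 to 8692 (4811) in WT, 1 to 58 (14) for KO against WT at ns and 0 to 50 (15) at LPS, and over 2 to 24 (3) in males, 3 to 213 (52) in females and 54 to 359 (137) averaged. Deviations of same-numbered libraries from their group means had a mean r of 0.205 over 35 pairs (lowest -0.228) in the LPS experiment. Other pairs there had a mean r of 0.101. In the sex experiment the values were 0.126 over 8 pairs (lowest -0.0544) and -0.0296. The main fits did not pair them. With a replicate block 8 of the 10 genes were called in KO, 6 in WT and 0 in the other contrasts. Over all genes that block gave 5425 calls for LPS in KO, 5639 in WT and 84 averaged over the sexes. Gbp6 and, in the sex experiment, Iigp1 were not tested at a mean of 5 CPM. Counts of a few reads limit Ifng, Ifnb1 and Gbp6.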
